A study of Arabidopsis thaliana with 24 samples.

Results

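The ploidy effect in control shoots is the difference between neo-tetraploid and diploid Arabidopsis shoots that had received no added NaCl. The comparison rests on 6 of the 24 libraries of the series, 3 per ploidy, chosen by their labels alone. All plants were Arabidopsis thaliana wild type of the accession Col-0, grown for 2 weeks on plates of quarter-strength Hoagland medium with 1% agar and 1% sucrose. By these descriptions the diploid control shoots and the neo-tetraploid control shoots shared accession, medium and age and differed in genome copy number. Any other difference between the diploid and neo-tetraploid lines cannot be told apart from ploidy. The Col-0 neo-tetraploids were lines from earlier work, and how many independent neo-tetraploid lines fed these libraries is not given in the sources used here. Each replicate was a pool of plants, and all replicates came from 1 experiment. Shoots grown on 35 mM NaCl (6 libraries) and roots of control plants (6 libraries), each with 3 diploid and 3 neo-tetraploid replicates, are used only to show where the control shoots differ.

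Whole-genome duplication doubles every chromosome at once, so the dosage of genes relative to each other stays the same. Neo-tetraploid plants usually have larger cells, and the study asked how duplication alters gene expression and ion homeostasis. Expression is given here as FPKM, a count scaled to transcript length and library size, per library or as the log2 fold change of neo-tetraploid over diploid. Both are relative to the library total, so a uniform change of RNA per cell would not appear, and in whole shoots fewer cells of a type cannot be told apart from less RNA per cell. A differentially expressed gene (DEG) had a Benjamini-Hochberg adjusted p below 0.05 and a fold change of at least 2.

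In the joint fit of all 12 shoot libraries (edgeR quasi-likelihood, replicate number as a block), 2 of 19174 tested genes were DEGs (0.0104%). QUA-QUINE STARCH (QQS) rose in neo-tetraploids and AT3G01345 fell, 1 gene in each direction (0.00522%). At an unadjusted p, 1716 genes were higher below 0.05 (8.95%), and 1297 genes were lower (6.76%). The lowest adjusted p among all remaining genes was 0.0997. Fitting the 6 control shoot libraries on their own, again with the replicate block, gave 357 DEGs of 18683 tested genes (1.91%), 328 higher (1.76%) and 29 lower (0.155%) in neo-tetraploids. The plot of DEGs by model gives the number of calls under each setting.

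**Figure D1:**
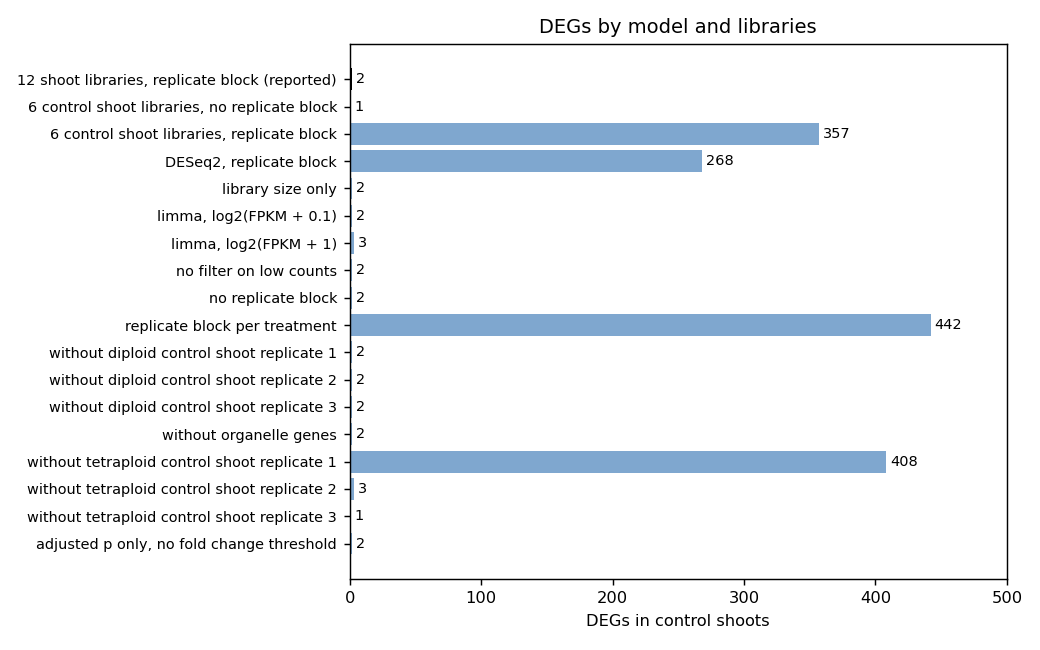
Number of DEGs in control shoots (x axis) under each model or set of libraries (y axis), with the joint fit of the 12 shoot libraries in black. Bars reach 357 for the 6 control libraries with the replicate block, 268 for DESeq2, 442 for a block per treatment and 408 without neo-tetraploid replicate 1, and lie between 1 and 3 elsewhere.

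Both fits gave close fold changes for the named genes, such as 2.53 and 2.54 on the log2 scale for QQS, and differed in the estimated spread. The common biological coefficient of variation, the relative standard deviation between replicates beyond counting noise, was 0.175 in the joint fit and 0.120 in the 6 control libraries. The 6-library fit had only 2 residual degrees of freedom per gene to estimate this spread, against 6 in the joint fit. Same-numbered diploid and neo-tetraploid control shoots deviated together from their group means, with correlations from 0.395 to 0.477 across genes. Leaving out neo-tetraploid replicate 1 from the joint fit raised the count from 2 to 408 DEGs, and leaving out any other control shoot library gave between 1 and 3. Of the 357 DEGs of the 6-library fit, 348 had an unadjusted p below 0.05 in the joint fit, with a median adjusted p of 0.164 there. The joint fit contains the same 6 libraries, so this overlap is no independent support. Genes named below as DEGs of the 6-library fit did not pass the joint fit unless this is stated, and they were selected after their values were seen.

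**Figure D2:**
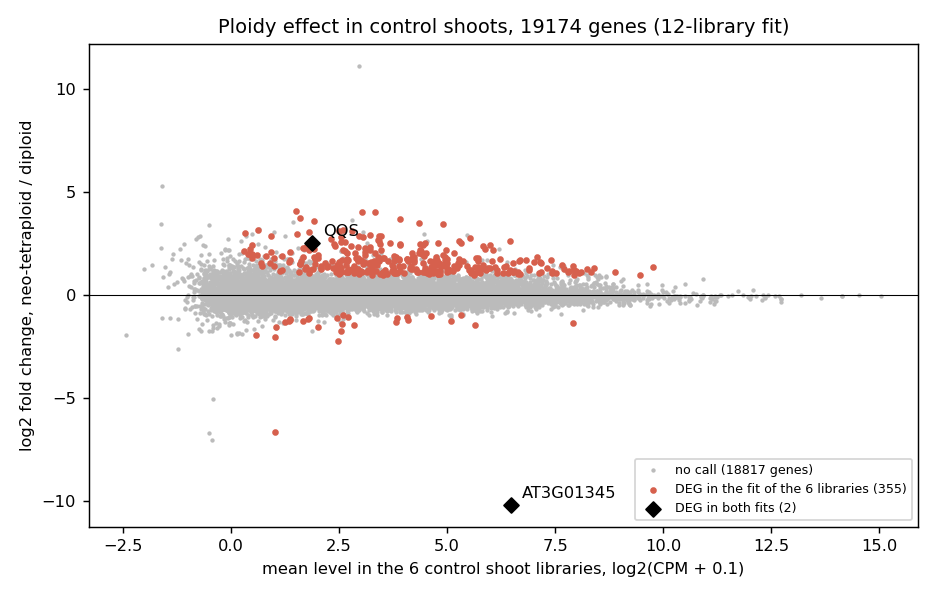
Log2 fold change of neo-tetraploid over diploid control shoots (y axis) against mean level in log2(CPM + 0.1) (x axis), 1 point per tested gene. Black diamonds mark QQS and AT3G01345, the DEGs of both fits, and red points mark the other 355 DEGs of the 6-library fit, most of which lie above 0.

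Replicate 1 was often the lowest library of its ploidy among the 328 higher genes of the 6-library fit. In 316 of them neo-tetraploid replicate 1 was the lowest neo-tetraploid library, and in 260 diploid replicate 1 was the lowest diploid library. Neo-tetraploids were higher in 3 of 3 same-numbered pairs for 326 of the 328 genes, but the 3 neo-tetraploid libraries lay wholly above the 3 diploid libraries for only 134. The 29 lower genes were lower in 3 of 3 pairs, and 15 of them did not overlap. The fit that selected these genes used the same pairs, so agreement across pairs was favoured by the selection and is no separate support. Shares over all tested genes are not given for the pair and replicate 1 counts. These counts therefore do not show a trait particular to the called genes. Over all 19174 tested genes, 7.14% were higher and 6.49% lower without overlap.

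Replicate 3 was marked by the circadian clock in both ploidies. TOC1, an evening-phased clock regulator, had 22.4, 24 and 112 FPKM in diploid replicates 1 to 3 and 34.2, 31.3 and 107 FPKM in neo-tetraploids. CCA1, its morning-phased counterpart, had 27.4, 23.9 and 1.42 FPKM in diploids and 21.1, 12 and 1.23 FPKM in neo-tetraploids. The third replicate was thus high for TOC1 and low for CCA1 in each ploidy, and the same holds for the NaCl shoots. Sampling time is not given in the labels, and its part in the ploidy comparison was not tested.

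QQS, an Arabidopsis-specific gene that affects starch content and whose expression is known to vary with DNA methylation at its locus, was the only gene to rise in the joint fit. It lies at chr3:12349047-12349933 (TAIR10.1). Diploid control shoots had 1.4, 2.17 and 1.98 FPKM of QQS, and neo-tetraploid control shoots had 8.89, 9.74 and 13.7 FPKM. The groups did not overlap, and the means were 1.85 ± 0.401 and 10.8 ± 2.54 FPKM (SD, n = 3). The log2 fold change was 2.53 (SE 0.25, edgeR adjusted p = 0.0261), and it stayed between 2.37 and 2.74 when single libraries were left out, with adjusted p up to 0.240. The same separation was present on NaCl, with 16, 9 and 13 expected counts of QQS in diploid shoots and 63, 56 and 82 in neo-tetraploid shoots. In control roots the gene was barely detected, with 0, 1 and 4 counts in diploids and 6, 6 and 8 in neo-tetraploids. The 250 bases upstream of QQS are printed next because it is the one called gene with a higher level.

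QQS, chr3:12348797-12349046, plus strand: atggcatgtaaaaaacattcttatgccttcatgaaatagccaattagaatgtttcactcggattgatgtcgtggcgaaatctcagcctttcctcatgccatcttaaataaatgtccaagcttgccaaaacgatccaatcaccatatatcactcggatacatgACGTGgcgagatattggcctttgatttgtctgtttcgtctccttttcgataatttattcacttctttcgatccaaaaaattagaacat
Capitals mark the ABRE core ACGTG, the short element bound by bZIP factors of the abscisic acid pathway. It occurred once in the QQS window, and the W-box core TTGAC, the element bound by WRKY factors, did not occur in it.

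AT3G01345, annotated only as an uncharacterized protein, fell to near absence in neo-tetraploids. It lies at chr3:129138-130749 (TAIR10.1). Diploid control shoots had 1973, 1950 and 2262 expected counts of AT3G01345, and neo-tetraploid control shoots had 3, 1 and 1. Summed over the libraries this was 6185 against 5 counts, a diploid to neo-tetraploid ratio of 1236 after scaling to library totals (exact 95% interval 530 to 3809, counting error only). The joint fit gave a log2 fold change of -10.20 (SE 0.46, edgeR adjusted p = 4.49e-05), and the call held in each leave-one-out fit. The other sample types showed the same pattern. On NaCl, AT3G01345 had 1093, 727 and 1370 counts in diploid shoots and 4, 4 and 23 in neo-tetraploid shoots, and control roots had 1778, 1585 and 1672 against 3, 2 and 2.

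The neighbours of AT3G01345 on the chromosome did not share its loss. AT3G01340, the next gene at lower coordinates, had 553, 550 and 576 counts in diploids and 547, 626 and 635 in neo-tetraploids (log2 fold change 0.12, SE 0.10, edgeR adjusted p = 0.605). AT3G01350, the next gene at higher coordinates, had 33.3, 67 and 40.0 counts in diploids and 41, 77 and 95 in neo-tetraploids (log2 fold change 0.59, SE 0.23, adjusted p = 0.262). The drop was therefore seen at 1 gene and not at the genes on either side. Whether the gene is missing, silenced or altered in sequence in these neo-tetraploids was not tested.

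AT5G12960 showed a similar pattern at a lower level but missed the threshold of the joint fit. Annotated with a DUF1680 domain, it lies at chr5:4097693-4101766 (TAIR10.1). Diploid control shoots had 50.2, 52.3 and 30.8 expected counts of AT5G12960, and neo-tetraploids had 0, 1.32 and 0. The summed counts were 133 against 1, a ratio of 133 (exact 95% interval 23.5 to 5290). The log2 fold change was -6.66 (SE 0.87, edgeR adjusted p = 0.0997), with an adjusted p of 0.0045 in the 6-library fit. The ratio was 25.8 (10.8 to 81.0) in NaCl shoots, 12.2 (4.48 to 46.6) in control roots and 3.03 (1.94 to 4.87) in NaCl roots, where 83 counts stood against 27. The libraries of both ploidies did not overlap in any of these groups. Counts of this gene were fractional because reads were shared with other genes, and the neighbouring AT5G12950, also with fractional counts, had 1630, 1437 and 1924 counts in diploids and 1461, 923 and 975 in neo-tetraploids (log2 fold change -0.58, adjusted p = 0.209), so the split of reads between them is uncertain.

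**Figure D3:**
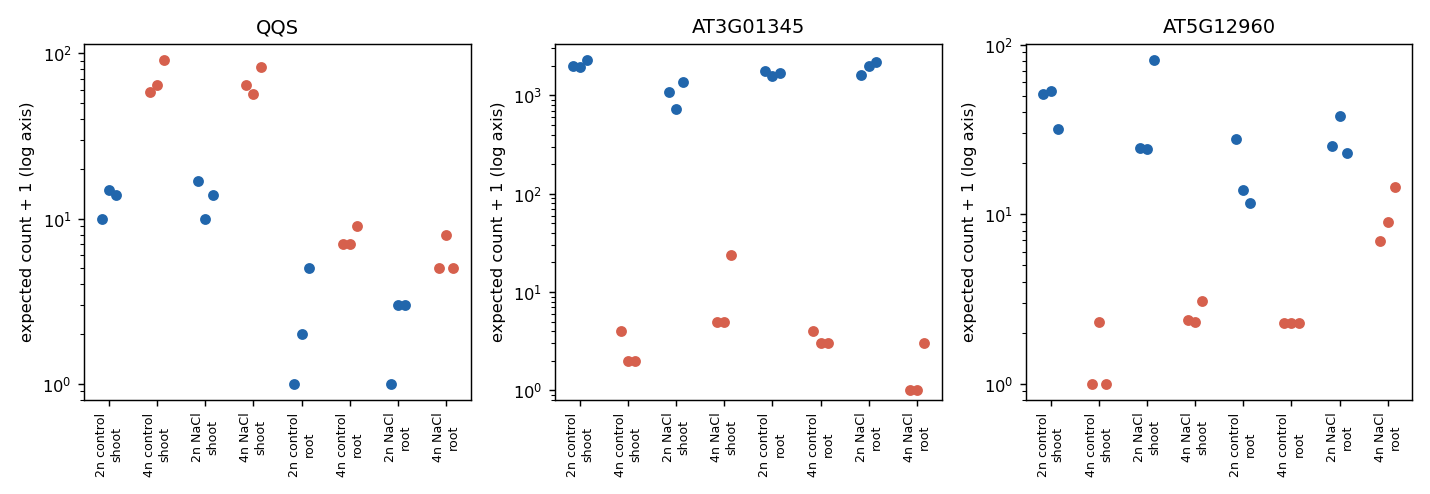
Expected counts plus 1 (y axis, log scale) of QQS, AT3G01345 and AT5G12960 in each library of the 8 groups (x axis), diploid (2n) in blue and neo-tetraploid (4n) in red, 3 points per group. In control shoots AT3G01345 falls from at least 1950 counts to at most 3, and QQS goes from 9 to 14 counts up to 57 to 90.

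The gene lists described next cover defence, stress signalling, growth and transport. Plants sense microbial molecules and cell damage through receptor kinases at the plasma membrane. Calcium influx, calcium-dependent kinases and mitogen-activated protein (MAP) kinases carry the signal to WRKY and ERF transcription factors, which in turn act on the synthesis of salicylic acid, jasmonate and defence metabolites. None of these lists contained a DEG of the joint fit, except the DNA methylation list with QQS. Over all tested genes the median log2 fold change was -0.0014, against which the list medians can be read. At an unadjusted p below 0.05, 8.95% of all tested genes were higher and 6.76% lower, against which the list counts can be read. In the 6-library fit 1.76% were higher DEGs and 0.155% lower DEGs.

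Among 21 tested immune receptors and co-receptors, 10 were higher and none lower at an unadjusted p below 0.05, and 4 were higher DEGs of the 6-library fit. Their median log2 fold change was 0.67, and 20 of 21 estimates were positive. BKK1, a co-receptor of the SERK family, had 15, 27.7 and 19.6 FPKM in diploids and 23.2, 85.2 and 94.5 FPKM in neo-tetraploids (log2 fold change 1.66, SE 0.38, edgeR adjusted p = 0.153). SOBIR1, an adaptor kinase of receptor-like proteins, had 66.1, 91.6 and 84.0 FPKM in diploids and 96.3, 192 and 222 FPKM in neo-tetraploids (1.09, SE 0.34, adjusted p = 0.199). Neo-tetraploid replicates 2 and 3 stood far above all diploids for both genes, whereas neo-tetraploid replicate 1 was within the diploid range for BKK1 and just above it for SOBIR1. MIK2, a receptor kinase for SCOOP peptides, and BIR1, a regulator of BAK1, followed with log2 fold changes of 1.16 (SE 0.24) and 1.13 (SE 0.32). BAK1 itself, the shared co-receptor, differed by 0.59 (SE 0.17, adjusted p = 0.174). The flagellin receptor FLS2 had 6.40, 6.24 and 5.21 FPKM in diploids and 6.92, 6.47 and 9.69 FPKM in neo-tetraploids.

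The cysteine-rich receptor-like kinases (CRKs), a family named for its extracellular cysteine motif, held 32 tested members. Of these 16 were higher and 3 lower at an unadjusted p below 0.05, 8 were higher DEGs of the 6-library fit, and the median log2 fold change was 0.87. CRK11 had 3.3, 13.3 and 9.60 FPKM in diploids and 12, 46.9 and 65.2 FPKM in neo-tetraploids (2.24, SE 0.47, edgeR adjusted p = 0.147). CRK14 had 2.80, 7.59 and 3.07 FPKM in diploids and 6.97, 38.6 and 37.6 FPKM in neo-tetraploids (2.65, SE 0.51, adjusted p = 0.132). Each neo-tetraploid library exceeded its same-numbered diploid, but neo-tetraploid replicate 1 fell among the diploids for both. CRK41, at 6.95, 15 and 8.14 against 19.0, 40.3 and 32.5 FPKM, did not overlap. CRK11 and CRK14 lie among related kinases on chromosome 4, so reads may be shared with paralogues.

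**Figure D4:**
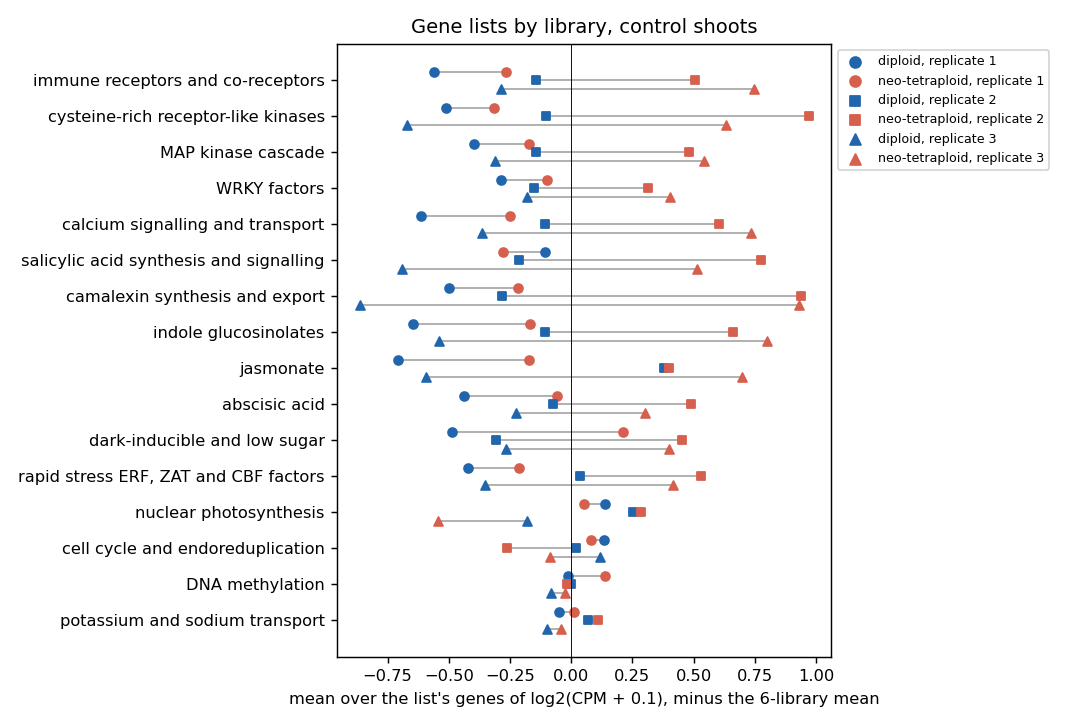
Mean over the tested genes of each list of log2(CPM + 0.1), relative to the mean of the 6 control shoot libraries (x axis), for 16 gene lists (y axis). Blue marks diploid and red neo-tetraploid libraries, circles, squares and triangles mark replicates 1, 2 and 3, and grey lines join same-numbered libraries; for the receptor, CRK, MAP kinase, WRKY and calcium lists the neo-tetraploid point lies to the right in each pair, with the shortest line in replicate 1.

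In the MAP kinase cascade, 7 of 15 tested members were higher and none lower at an unadjusted p below 0.05, and 2 were DEGs of the 6-library fit. MPK11, a kinase close to MPK4, had 0.80, 1.52 and 0.39 FPKM in diploids and 1.07, 9.87 and 12.9 FPKM in neo-tetraploids (log2 fold change 3.17, SE 0.93, edgeR adjusted p = 0.184). MKK4, which activates MPK3 and MPK6, differed by 1.29 (SE 0.38, adjusted p = 0.186). The abundant MPK3 went from 171 ± 52.3 to 307 ± 98.8 FPKM (SD, n = 3), a log2 difference of 0.87 (SE 0.49). MPK4 and MPK6 differed by 0.30 (SE 0.11) and 0.23 (SE 0.10), and neither overlapped between ploidies.

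WRKY factors, the DNA-binding regulators of many defence genes, had 51 tested members. Of these 16 were higher and 1 lower at an unadjusted p below 0.05, 6 were higher DEGs of the 6-library fit, and the median log2 fold change was 0.37. WRKY30 showed the largest estimate, with 1.23, 8.96 and 1.2 FPKM in diploids and 3.28, 64.9 and 56.0 FPKM in neo-tetraploids (3.44, SE 0.73, edgeR adjusted p = 0.148). WRKY53, a regulator of senescence and defence, had 9.41, 26.5 and 24.2 FPKM in diploids and 29.7, 63.1 and 69.4 FPKM in neo-tetraploids without overlap (1.46, SE 0.35, adjusted p = 0.154). WRKY28 did not overlap either (1.72, SE 0.33). WRKY33, a regulator of camalexin synthesis, went from 153 ± 38.7 to 274 ± 75.1 FPKM (0.87, SE 0.46, adjusted p = 0.393).

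Because WRKY factors and abscisic acid genes were both among the higher genes, the 250 bases upstream of the RefSeq gene start (TAIR10.1) were searched on both strands for the W-box and ABRE cores. The W-box core TTGAC, or GTCAA on the other strand, was present in 201 of 319 protein-coding higher DEGs of the 6-library fit (63.0%), in 9 of 28 lower DEGs (32.1%) and in 44.7% of the 18597 tested protein-coding genes. The ABRE core ACGTG, or CACGT on the other strand, was present in 31.7% of the higher DEGs, 21.4% of the lower DEGs and 23.6% of the tested genes. These shares are descriptions of letters in a window and were not tested. The windows of WRKY30, with 3 W-box cores, and of the abscisic acid gene AFP3, rich in ABRE cores, illustrate both elements, with matches in capitals.
WRKY30, chr5:8154711-8154960, minus strand: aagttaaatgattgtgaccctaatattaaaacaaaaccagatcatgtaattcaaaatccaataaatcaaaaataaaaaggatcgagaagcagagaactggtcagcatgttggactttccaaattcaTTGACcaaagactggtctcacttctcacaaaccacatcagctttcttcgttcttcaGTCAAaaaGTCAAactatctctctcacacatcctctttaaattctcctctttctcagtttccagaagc
AFP3, chr3:11384146-11384395, minus strand: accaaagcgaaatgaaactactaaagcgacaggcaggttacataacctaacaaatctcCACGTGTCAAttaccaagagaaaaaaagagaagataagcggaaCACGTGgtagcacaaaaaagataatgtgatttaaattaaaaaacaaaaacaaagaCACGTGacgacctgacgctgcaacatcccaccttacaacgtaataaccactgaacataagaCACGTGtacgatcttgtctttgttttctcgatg
In AFP3 the palindrome CACGTG matches the ABRE core on both strands, which gives 8 matches at its 4 occurrences, and the first of them overlaps 1 W-box core.

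In calcium signalling and transport, 17 of 30 tested members were higher and 2 lower at an unadjusted p below 0.05. Of these members, 7 were higher DEGs of the 6-library fit, and the median log2 fold change was 0.93. CML12, a touch-inducible calmodulin-like protein, was the most abundant of the 357 DEGs in neo-tetraploids, with 225, 526 and 432 FPKM in diploids and 511, 1180 and 1339 FPKM in neo-tetraploids (1.38, SE 0.46, edgeR adjusted p = 0.214). CPK28, a calcium-dependent kinase that limits immune signalling, went from 46.6 ± 18.7 to 114 ± 53.0 FPKM (1.31, SE 0.48). Both genes were higher in 3 of 3 pairs, but neo-tetraploid replicate 1 remained within the diploid range. The calcium pump ACA1 differed by 1.27 (SE 0.48), and CML42, another calmodulin-like protein, had 6.72, 6.47 and 7.04 FPKM in diploids and 11.1, 19.9 and 32.5 FPKM in neo-tetraploids without overlap.

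Salicylic acid synthesis and signalling contained 23 tested members, of which 9 were higher and none lower at an unadjusted p below 0.05, with a median log2 fold change of 0.66. EDS1, a lipase-like hub of resistance signalling, had 11.4, 18.4 and 13.4 FPKM in diploids and 16.1, 43.0 and 48.6 FPKM in neo-tetraploids (1.29, SE 0.32, edgeR adjusted p = 0.155). CBP60g, a calmodulin-binding activator of salicylic acid synthesis, differed by 1.13 (SE 0.51), and ICS1, the isochorismate synthase it controls, by 0.61 (SE 0.16). EDS1 and CBP60g were the 2 members called in the 6-library fit. The output genes were uneven. PCC1, a small membrane protein induced by pathogens, had 59.3, 12.8 and 14 FPKM in diploids and 109, 124 and 138 FPKM in neo-tetraploids without overlap (2.53, SE 0.57, adjusted p = 0.153). PR2, a beta-glucanase, had 24, 6.59 and 1.86 FPKM in diploids and 4.31, 36.3 and 8.60 FPKM in neo-tetraploids. PR1, the classical marker, was too low to be tested and reached 25.0 FPKM in neo-tetraploid replicate 2, against 0.12 to 3.06 FPKM in diploids. For PR1 and PR2 diploid replicate 1 exceeded neo-tetraploid replicate 1.

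Genes for tryptophan-derived defence metabolites mostly followed the same direction at the RNA level. For camalexin synthesis and export 6 of 12 tested genes, and for indole glucosinolates 8 of 15, were higher at an unadjusted p below 0.05, and none was lower. CYP81F2, the hydroxylase of indole glucosinolates, had 7.28, 17.1 and 11.1 FPKM in diploids and 22.4, 71.1 and 91.1 FPKM in neo-tetraploids without overlap (2.45, SE 0.73, edgeR adjusted p = 0.188). IGMT1, a methyltransferase acting after it, had 10.2, 18.7 and 21.1 FPKM in diploids and 32.0, 57.9 and 87.4 FPKM in neo-tetraploids (1.82, SE 0.46, adjusted p = 0.155). Every neo-tetraploid library was above every diploid library for these enzymes. MYB51, the transcription factor of this pathway, differed by 1.08 (SE 0.46). In the camalexin branch CYP71A12 had 1.45, 1.00 and 0.52 FPKM in diploids and 4.03, 3.3 and 2.69 FPKM in neo-tetraploids, whereas PAD3, the last enzyme, was high only in neo-tetraploid replicates 2 and 3 (8.68 and 8.93 FPKM, against at most 1.1 FPKM elsewhere). GSTF6, a glutathione transferase of the pathway, differed by 1.84 (SE 0.52).

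ESM1, a protein that modifies glucosinolate breakdown, had 2257, 1968 and 3309 counts in diploid control shoots and 3551, 4506 and 5704 in neo-tetraploids. The libraries did not overlap, but in control shoots ESM1 was no DEG (adjusted p = 0.115), whereas it was a DEG in NaCl shoots (edgeR adjusted p = 0.0155).

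Of 39 tested jasmonate genes 7 were higher and none lower at an unadjusted p below 0.05, with median log2 differences of 0.57, -0.06 and 0.99 in pairs 1, 2 and 3. AOC3, an allene oxide cyclase of jasmonate synthesis, had 7.61, 23.8 and 9.34 FPKM in diploids and 18.6, 36.1 and 64.6 FPKM in neo-tetraploids (1.84, SE 0.61, edgeR adjusted p = 0.213). ST2A, a sulfotransferase acting on hydroxyjasmonate, had 0.61, 3.09 and 0.24 FPKM in diploids and 0.99, 14.7 and 3.29 FPKM in neo-tetraploids. Both were called in the 6-library fit and both overlapped between ploidies.

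Abscisic acid, the hormone of water deficit, was represented by 47 tested genes, of which 14 were higher and 1 lower at an unadjusted p below 0.05 and 9 were higher DEGs of the 6-library fit. HAI1, a clade A phosphatase of abscisic acid signalling, had 0.86, 3.52 and 0.73 FPKM in diploids and 3.01, 15.8 and 14.5 FPKM in neo-tetraploids (log2 fold change 2.88, SE 0.42, edgeR adjusted p = 0.115). NCED3, the limiting enzyme of abscisic acid synthesis under drought, had 11.1, 35.9 and 21.4 FPKM in diploids and 26.2, 62.1 and 38.6 FPKM in neo-tetraploids (0.96, SE 0.17, adjusted p = 0.115). In both genes replicate 2 was the highest library of each ploidy, and the neo-tetraploid was higher in 3 of 3 pairs although the ranges overlapped. The bZIP factor GBF3 differed by 1.77 (SE 0.27), AFP3, which binds the factor ABI5, by 1.47 (SE 0.23), and the caleosin RD20 by 2.55 (SE 0.61). ANAC019, a stress NAC factor, and RD29B, a late response gene, had estimates of 2.83 (SE 1.2) and 1.64 (SE 0.46). RD29A had 86.0, 99.3 and 341 FPKM in diploids and 142, 272 and 332 FPKM in neo-tetraploids.

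**Figure D5:**
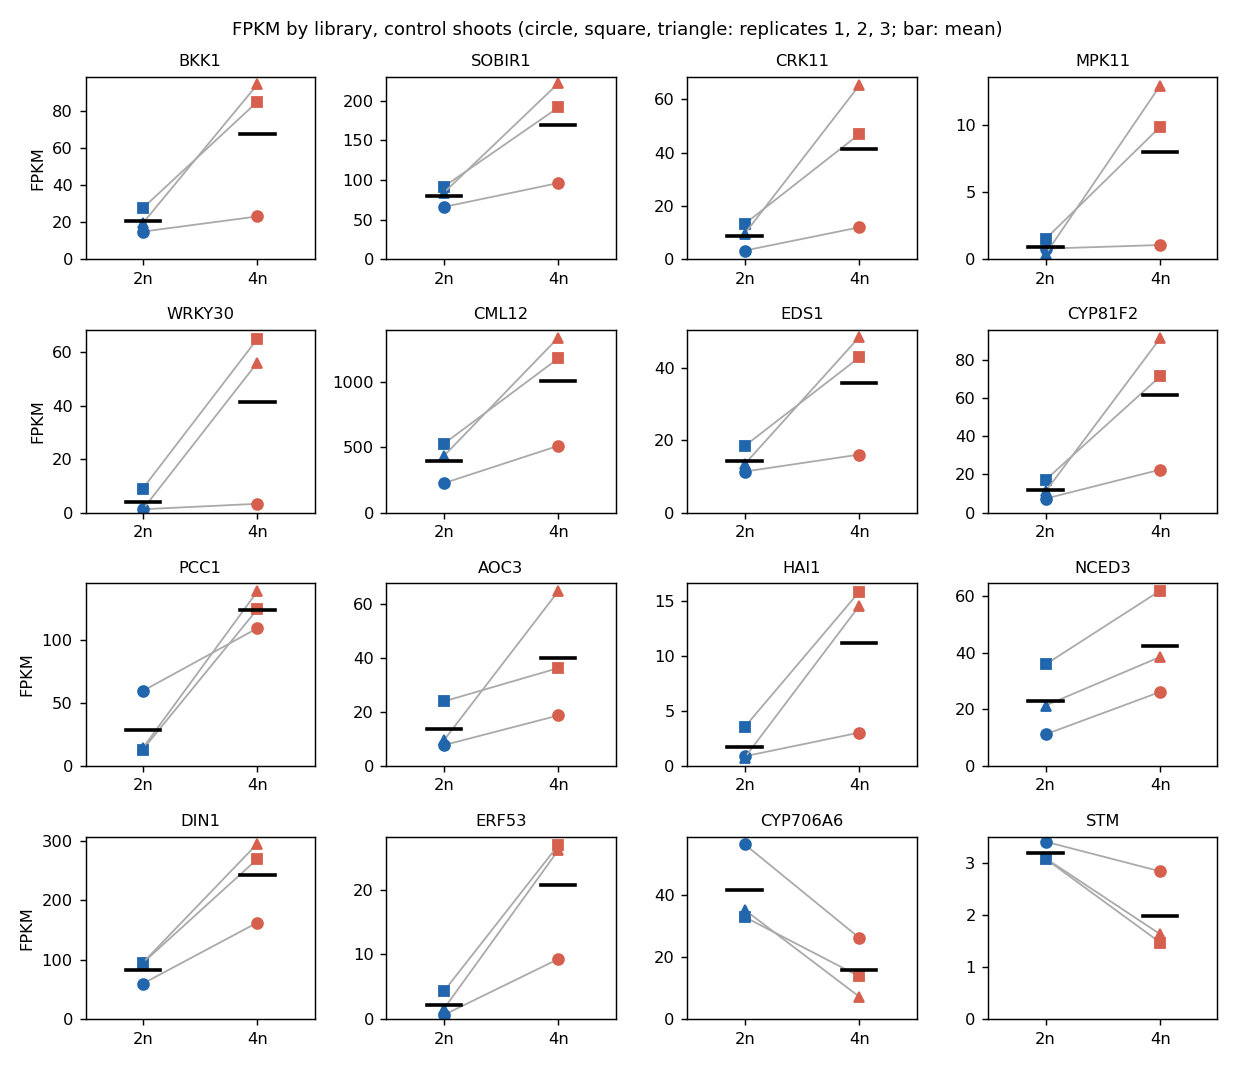
FPKM (y axis, from 0) of 16 genes in diploid (2n, blue) and neo-tetraploid (4n, red) control shoots, 1 point per library, lines joining same-numbered libraries and bars at the means. For BKK1, MPK11, WRKY30 and EDS1 the circle of neo-tetraploid replicate 1 sits near the diploids, while CYP81F2, PCC1, DIN1 and ERF53 separate in every library.

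Several genes with large estimates were transcription factors of the AP2/ERF family. AT1G71520, an AP2/ERF domain protein, had 0, 1.25 and 0.31 FPKM in diploids and 1.57, 9.03 and 17.0 FPKM in neo-tetraploids (log2 fold change 4.1, SE 0.67, edgeR adjusted p = 0.124). ERF53, a drought-responsive member, had 0.61, 4.27 and 1.53 FPKM in diploids and 9.29, 27.0 and 26.2 FPKM in neo-tetraploids (3.71, SE 0.54, adjusted p = 0.115). AT4G28140, a further member, had 0.51, 4.53 and 3.75 FPKM in diploids and 14.6, 29.3 and 47.2 FPKM in neo-tetraploids (3.49, SE 0.45, adjusted p = 0.0997). None of these AP2/ERF genes overlapped between ploidies. In the list of rapid stress ERF, ZAT and CBF factors, 2 of 22 tested genes were higher at an unadjusted p below 0.05, a share close to the 8.95% of all genes. In the 6-library fit 12 of 21 were higher at this level and 2 were DEGs. The genes higher in the joint fit were ZAT11, a zinc finger repressor, with an estimate of 2.38 (SE 0.50), and ERF98, with 2.85 (SE 0.87). Other genes with large estimates were AT5G52760, a protein of the copper transport family (3.12, SE 0.82), and AT1G05675, a UDP-glycosyltransferase (2.80, SE 0.70).

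The dark-inducible and low-sugar list had positive medians in all pairs. Of 16 tested members 11 were higher and none lower at an unadjusted p below 0.05, and the median log2 differences were 0.83, 0.64 and 0.51 in pairs 1, 2 and 3. DIN1, a senescence-associated protein, had 59.3, 94.1 and 94.4 FPKM in diploids and 162, 269 and 295 FPKM in neo-tetraploids (1.56, SE 0.31, edgeR adjusted p = 0.138). DIN6, an asparagine synthetase repressed by sugar, had 38.7, 106 and 57.2 FPKM in diploids and 119, 186 and 152 FPKM in neo-tetraploids (1.21, SE 0.48). Neo-tetraploid replicate 1 was here above all diploids, and its summed FPKM over the list did not overlap either, with 517 to 700 in diploids and 1008 to 1142 in neo-tetraploids.

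Growth genes had mostly negative estimates, 37 of 48 in the cell cycle list. Of these 48 tested cell cycle and endoreduplication genes, 10 were lower and 1 higher at an unadjusted p below 0.05, and the median log2 fold change was -0.23. CYCB1;1, a mitotic cyclin, had 4.29, 4.22 and 5.16 FPKM in diploids and 4.26, 2.71 and 4.03 FPKM in neo-tetraploids (-0.31, SE 0.22, edgeR adjusted p = 0.515). STM, a homeobox gene of the shoot meristem, had 3.41, 3.08 and 3.09 FPKM in diploids and 2.84, 1.47 and 1.63 FPKM in neo-tetraploids without overlap (-0.69, SE 0.25, adjusted p = 0.232). None of these genes was called in either fit. Of 32 nuclear photosynthesis genes 2 were lower at an unadjusted p below 0.05, a share close to the 6.76% of all genes. The list median was -0.10, with the Rubisco small subunit RBCS1A at -0.14 (SE 0.12).

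Among the 29 lower DEGs of the 6-library fit, AT3G55710, a UDP-glycosyltransferase, had 1.77, 1.82 and 2.46 FPKM in diploids and 0.63, 0.17 and 0.67 FPKM in neo-tetraploids (log2 fold change -2.06, SE 0.30, edgeR adjusted p = 0.115). The cytochrome P450 CYP706A6 had 56.4, 32.9 and 35.2 FPKM in diploids and 26.2, 13.7 and 7.18 FPKM in neo-tetraploids (-1.47, SE 0.39). Both separated the ploidies without overlap.

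Ion transport was a subject of the study. Of 41 tested potassium and sodium transport genes, 3 were higher and 1 lower at an unadjusted p below 0.05, and the median log2 fold change was -0.01. Both shares lay below those of all tested genes, 8.95% higher and 6.76% lower. HKT1, which retrieves sodium from the xylem, had 0.60, 1.04 and 0.63 FPKM in diploids and 1.5, 1.98 and 1.21 FPKM in neo-tetraploids without overlap (1.07, SE 0.29, edgeR adjusted p = 0.165). CHX17, a cation/proton exchanger, had 0.32, 0.47 and 0.19 FPKM in diploids and 0.70, 1.1 and 1.02 FPKM in neo-tetraploids (1.57, SE 0.40, adjusted p = 0.155) and was the member called in the 6-library fit. The root potassium transporter HAK5 was listed at 0 in 5 of the 6 libraries and at 0.13 FPKM in neo-tetraploid replicate 2. MBF1c, a transcriptional coactivator examined by the study, had 8.62, 12.8 and 6.06 FPKM in diploids and 7.22, 25.1 and 19.7 FPKM in neo-tetraploids (0.84, SE 0.29, adjusted p = 0.228). ESB1, a Casparian strip protein also examined by the study, differed by -0.17 (SE 0.14).

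Of 17 tested members of the DNA methylation list, QQS included, 3 were higher and 4 lower at an unadjusted p below 0.05. The maintenance methyltransferase MET1 had 14.7, 12.4 and 14.8 FPKM in diploids and 13.6, 8.64 and 12.8 FPKM in neo-tetraploids (log2 fold change -0.27, SE 0.11, edgeR adjusted p = 0.271). The demethylase ROS1 had 12.2, 13.7 and 15.1 FPKM in diploids and 17.3, 15.5 and 19.6 FPKM in neo-tetraploids without overlap (0.36, SE 0.12, adjusted p = 0.216).

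Other lists gave the following counts at an unadjusted p below 0.05, beside 8.95% higher and 6.76% lower over all tested genes. Of 48 SAUR genes, which are rapidly induced by auxin, 8 were higher and 1 lower, with a median log2 fold change of 0.51, and of 24 Aux/IAA repressors 5 were higher and none lower, with a median of 0.21. Both lists differed most in pair 2. Median log2 differences in pairs 1, 2 and 3 were 0.03, 0.83 and 0.22 for SAUR genes and 0.07, 0.32 and 0.04 for Aux/IAA repressors. Of 24 circadian clock genes 1 was higher and 1 lower, and of 11 hypoxia response genes none was either. Among transcripts of the chloroplast genome 9 of 71 tested were higher and among those of the mitochondrial genome 6 of 24, with medians of 0.32 and 0.28 and none lower. Organelle transcripts are poorly captured by oligo(dT) selection, so their levels are less certain.

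The labelled organ was checked with marker genes. The 9 root markers summed to between 210 and 278 FPKM in diploids and between 190 and 316 FPKM in neo-tetraploids. Nearly all of this was PYK10, a beta-glucosidase, with 273, 207 and 204 FPKM in diploids and 307, 182 and 232 FPKM in neo-tetraploids (log2 fold change 0.07, SE 0.16, edgeR adjusted p = 0.859). The nitrate transporter NRT2.1, the other root marker abundant enough to be tested, had 3.07 to 6.71 FPKM, while COBL9, IRT1 and EXPA7 did not exceed 0.17 FPKM in any control shoot library. Leaf mesophyll markers summed to between 20583 and 29288 FPKM in diploids and between 15808 and 26587 FPKM in neo-tetraploids, and none of the 5 differed at an unadjusted p below 0.05. Senescence markers summed to between 22.1 and 38.7 FPKM in diploids and between 33.7 and 63.4 FPKM in neo-tetraploids, with 3 of 4 tested genes higher at an unadjusted p below 0.05 and SAG12 listed at 0 in 3 of the 6 libraries. The part of senescence in the higher defence and dark-inducible genes was not tested.

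The control shoots were then set beside the NaCl shoots and the control roots, with the ploidy effect estimated in each. In NaCl shoots 3 of 19174 genes were DEGs (0.0156%), namely ESM1 and QQS, which were higher, and AT3G01345, which was lower. The median log2 fold change was smaller on NaCl than in control shoots for several defence lists, to different degrees. It was 0.04 against 0.93 for calcium signalling, 0.14 against 0.67 for the immune receptors and 0.22 against 0.87 for the CRKs. It was 0.23 against 0.66 for salicylic acid synthesis, 0.40 against 0.83 for camalexin, 0.41 against 0.64 for jasmonate and 1.00 against 1.31 for salicylic acid output. The control shoot values of both salicylic acid lists were uneven across pairs. Median log2 differences in pairs 1, 2 and 3 were -1.661, 2.097 and 2.434 for output, with pair 1 reversed. For synthesis they were 0.0104, 0.666 and 1.121, with almost no difference in pair 1. The dark-inducible list had -0.12 against 0.70. Single genes also ranged widely on NaCl, from CPK28 at -0.00, WRKY53 at 0.04 and CYP81F2 at 0.06 to PCC1 at 3.09 (edgeR adjusted p = 0.360). The abscisic acid list had medians of 0.47 on NaCl and 0.44 in control shoots. The ploidy by NaCl interaction called no gene (0%) at an adjusted p below 0.05 in edgeR, with a lowest adjusted p of 0.857 and 971 genes at an unadjusted p below 0.05 (5.06%), so that a difference between both media was not shown for any single gene. With a replicate block of its own for each treatment, an alternative chosen after seeing the data, 442 genes were DEGs in control shoots (2.31%), and the interaction called 50 genes.

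In control roots 317 of 20239 tested genes were DEGs (1.57%). Of these, 61 were also DEGs of the 6-library fit in shoots, which is 17.1% of the shoot list and 19.2% of the root list. Root list medians were 0.43 for immune receptors, 0.45 for salicylic acid synthesis, 0.40 for calcium signalling and 0.55 for CRKs. Rapid stress factors had 0.84 in roots against 0.37 in shoots, whereas abscisic acid had -0.01 and indole glucosinolates 0.11 in roots. The median over all tested root genes was -0.0048. Positive medians of several defence lists were thus not particular to control shoots. WRKY53 (1.57), CPK28 (1.4), MPK3 (1.29) and NCED3 (1.09) were among the genes with positive root estimates past the adjusted threshold, as was ERF53 (2.43). HAI1 and CYP81F2, at 0.69 and 0.58, were not. The ploidy by organ interaction called 3 of 20983 genes (0.0143%), namely EXLA3, AT1G66180 and CRU3. AT1G67105, a non-coding RNA gene, was not called (edgeR adjusted p = 0.202). Control shoots had 3, 4 and 7 counts of it in diploids and 24, 24 and 28 in neo-tetraploids, whereas control roots had 7, 16 and 17 in diploids and 5, 15 and 16 in neo-tetraploids.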

How the data were processed

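The 24 libraries (3 replicates each of 2 ploidies, 2 organs and 0 or 35 mM NaCl) were made from oligo(dT)-enriched RNA and read as single-end reads on a BGISEQ-500. The authors mapped the reads to TAIR10 with HISAT and Bowtie2 and deposited, per library, RSEM expected counts and FPKM per gene. The expected counts summed to between 11362548 and 11681694 in the 6 control shoot libraries. The deposited counts were rounded to whole numbers, genes not listed in a library were set to 0, and a gene was tested if 3 or more of the fitted libraries reached 10 counts. RSEM divides reads between similar genes, so paralogues and overlapping genes are uncertain, and strand use is not given in the sources used here.

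The main test was edgeR 4.0.16 (quasi-likelihood, TMM scaling, R 4.3.3) on the 12 shoot libraries with the replicate number as a block. All 18 same-numbered pairs of shoot libraries correlated above 0.1 (0.148 to 0.738), so the numbers were taken to pair the libraries, although the labels do not say what a number shares. The 36 pairs with different numbers ranged from -0.535 to 0.152, so the ranges overlapped slightly. Deviations from a group mean sum to 0, which by itself lowers the values of differently numbered pairs. P-values of the main test measure the spread between pools of plants from 1 experiment that remained after the block. This spread was estimated over control and NaCl shoots together. Alternatives used limma 3.58.1 on log2(FPKM + 1) and log2(FPKM + 0.1), DESeq2 1.42.0, other scalings, filters, blocks and sets of libraries. The fitting code was tested on simulated data with a replicate effect shared by control and NaCl libraries. That test cannot inform the choice between a shared block and a block per treatment. Coordinates and upstream sequences are from RefSeq TAIR10.1, since the deposited tables hold none.

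Named genes were, among DEGs, the 10 largest increases and 5 largest decreases without overlap between ploidies, up to 6 per list, the 10 with the highest FPKM, the anchor genes of the lists, and the lowest interaction p-values. As the joint fit had 2 DEGs, the same rule was applied to the 6-library fit, with a selection of its names printed. The comparison and its gene lists were chosen with earlier results of these data known.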

Additional observations from a re-analysis of the deposited data

Results flagged for a closer look

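The ploidy by organ interaction (edgeR, 12 control libraries, replicate block) differed from 0 for 3 genes, and without the block it called 0 genes. For EXLA3, an expansin-like cell wall gene, the ploidy effect was lower in shoots than in roots by a log2 difference of -2.74 (SE 0.30, adjusted p = 0.0134). Control shoots had 23, 30 and 39 counts of EXLA3 in diploids and 35.0, 25.3 and 50 in neo-tetraploids, while control roots had 50, 53.0 and 60.3 in diploids and 298, 513 and 452 in neo-tetraploids. For AT1G66180, an aspartyl protease, the difference was -1.35 (SE 0.17, adjusted p = 0.0353), with mean FPKM of 42.9 and 43.7 in diploid and neo-tetraploid shoots and 29.3 and 75.0 in the respective roots. For CRU3, a seed storage protein, it was 12.29 (SE 0.87, adjusted p = 0.0134), but this value rested on single libraries. CRU3 had 12, 0 and 0 counts in diploid shoots, 121, 0 and 0 in neo-tetraploid shoots, 247, 1 and 0 in diploid roots and 0 in each neo-tetraploid root library.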

How the results depend on the processing

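The count of DEGs in control shoots was 2 in the joint fit with the replicate block and also 2 without the block. It was 357 with only the 6 control libraries and the block, 1 with these 6 libraries and no block, 268 with DESeq2 (1.4% of tested genes), and 442 with a block per treatment, an alternative chosen after seeing the data. Leaving out single libraries gave 1 to 408, with 408 without neo-tetraploid replicate 1 and 1 without neo-tetraploid replicate 3. The number of list members called went from 1 to 57, 51 and 70 in the 6-library, DESeq2 and per-treatment fits, and ranged from 0 to 68 when single libraries were left out. Over all tested genes the share called went from 0.0104% to 1.91%, 1.4% and 2.31% in the same fits. The share of list members called is not given, so a rise beyond that of all genes is not shown. Of the 357 genes, 223 were also DESeq2 calls and 344 were calls with the block per treatment, both from fits that reuse the same control libraries. With the block per treatment, NaCl shoots went from 3 to 71 DEGs and the ploidy by NaCl interaction from 0 to 50. Without the replicate block, control roots went from 317 to 201 DEGs and the ploidy by organ interaction from 3 to 0. QQS missed the threshold with the 6 libraries and no block (adjusted p = 0.212) and in 5 leave-one-out fits (0.0631 to 0.240). None of the genes with a control shoot fold change recomputed under these alternatives changed direction. Low counts limit CHX17, HKT1 and AT5G12960, and 3 replicates from 1 experiment limit all comparisons. The cause of the differences between settings was not tested.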

Other observations

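AT1G48598 was listed with 275 expected counts, equal to within 0.01 counts, in 5 of the 24 libraries and with 0 in the other 19. In control shoots this gave 0, 0 and 0 in diploids and 275, 0 and 275 in neo-tetraploids. PMEAMT (AT1G48600), also with fractional counts, had 2200, 1959 and 1764 counts in diploid control shoots and 1948, 1917 and 1388 in neo-tetraploids. Whether reads were divided between both entries was not tested. AT1G48598 was not called in the joint fit, and no fold change is given for it.

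AP4.3A, a lectin receptor kinase chosen after its values were seen, had 12.7, 16.7 and 17.9 FPKM in diploid and 22.4, 31.9 and 32.8 FPKM in neo-tetraploid control shoots without overlap. Its log2 fold change was 0.88 (SE 0.11, edgeR adjusted p = 0.0997), against 0.07 in NaCl shoots and -0.05 in control roots.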
